A study of Homo sapiens with 9 samples.

Results

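The integrin and laminin genes were examined in xenografts of PC3, a human prostate cancer cell line. Members were the genes whose symbol in the deposited tables is that of an integrin α or β subunit (ITGA or ITGB and its number or letter) or of a laminin α, β or γ chain (LAMA, LAMB or LAMC and its number), with no use of their measured values. This rule found 36 genes in both tables, 24 integrins (16 α and 8 β subunits) and 12 laminins, of 16008 genes in both. ITGAX was listed in the T-DXd table only and was not used here.

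PC3 cells were grown under the skin of the flanks of male NSG mice, which the series record gives as 11 weeks old, and the tumors were taken at the experimental endpoint for RNA-Seq. NSG mice lack mature T cells, B cells and natural killer cells but keep macrophages, blood vessels, fibroblasts and muscle. The mice received PBS as vehicle, P-DXd (patritumab deruxtecan, an antibody-drug conjugate directed at HER3) or T-DXd (trastuzumab deruxtecan, directed at HER2), each conjugate at 5 mg/kg, weekly by retro-orbital injection. Both conjugates carry deruxtecan, an inhibitor of topoisomerase I. The record gives 5 cycles, and the study's methods differ from it in the age of the mice, the number of cycles and the starting tumor volume. There were 3 libraries in each of 3 groups. Sample titles and treatment fields name opposite conjugates for the 6 treated libraries, so each treated group is named by its title (P-DXd-titled or T-DXd-titled), and the comparison of all 6 with PBS does not depend on which is right. The same 3 PBS libraries serve every comparison with PBS, so these comparisons are not independent of each other.

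Integrins are receptors made of 1 α and 1 β subunit that hold cells to the extracellular matrix and pass signals in both directions. Laminins are trimers of an α, a β and a γ chain and form the sheet on which epithelia rest. In normal prostate, basal cells lie on laminin-332, which holds the LAMA3 and LAMB3 chains, and bind it through integrin α6β4 in hemidesmosomes and through integrin α3β1. PC3 cells are known to make laminin and to adhere to it through these receptors.

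Total counts ran from 54481702 to 125538670 per library and table, and the lowest PBS total (90761763) was above the highest treated total (83721486). The human epithelial markers KRT8, KRT18, KRT7 and EPCAM were present in every group (465 ± 55.2 CPM of KRT8 in PBS, n = 3; CPM is the count scaled to the TMM-adjusted library size). KLK2 and KLK3, which are known to be low or absent in PC3, were not listed, and how mouse reads enter the counts was not tested. PBS replicate 1 lay more than 1.5-fold below the mean of the other PBS libraries for 11 members and more than 1.5-fold above it for 4. The corresponding numbers were 1 and 2 for replicate 2 and 2 and 3 for replicate 3. The share over all genes was not computed, so whether this library stood apart for all genes alike was not tested. P-DXd-titled replicate 2 had 5553 CPM summed over 16 skeletal muscle genes, where the other treated libraries had 139 to 373 and PBS 28.9 to 91.6.

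Calls required both a change of 1.5-fold or more and an adjusted p of 0.05 or less in edgeR's quasi-likelihood test, fitted over all genes. In the comparison of the 6 treated libraries with PBS, 18 of 35 members tested were called, 9 higher and 9 lower, beside 32.2% of all genes tested (15.2% higher and 17.1% lower). In the P-DXd-titled libraries 14 of 35 members were called, 6 higher and 8 lower, beside 25.0% of all genes (11.2% and 13.8%). In the T-DXd-titled libraries 15 of 35 were called, 7 higher and 8 lower, beside 28.6% of all genes (13.1% and 15.5%). The median log2 fold change of the members was -0.22, -0.12 and -0.21 in the P-DXd-titled, T-DXd-titled and combined comparisons, beside -0.01, -0.02 and -0.01 over all genes. The 6 treated libraries lay wholly above or below the 3 PBS libraries for 18 of the 35, a share close to the 50.5% of all genes tested. LAMB4 was too low to test. In tumor RNA, fewer cells of a type and less RNA per cell cannot be told apart. With P-DXd-titled replicate 2, the library high in muscle genes, left out, 10 members were called in the P-DXd-titled comparison and 17 in the combined one. With PBS replicate 1 left out, 14, 18 and 18 members were called in the P-DXd-titled, T-DXd-titled and combined comparisons.

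**Figure D1:**
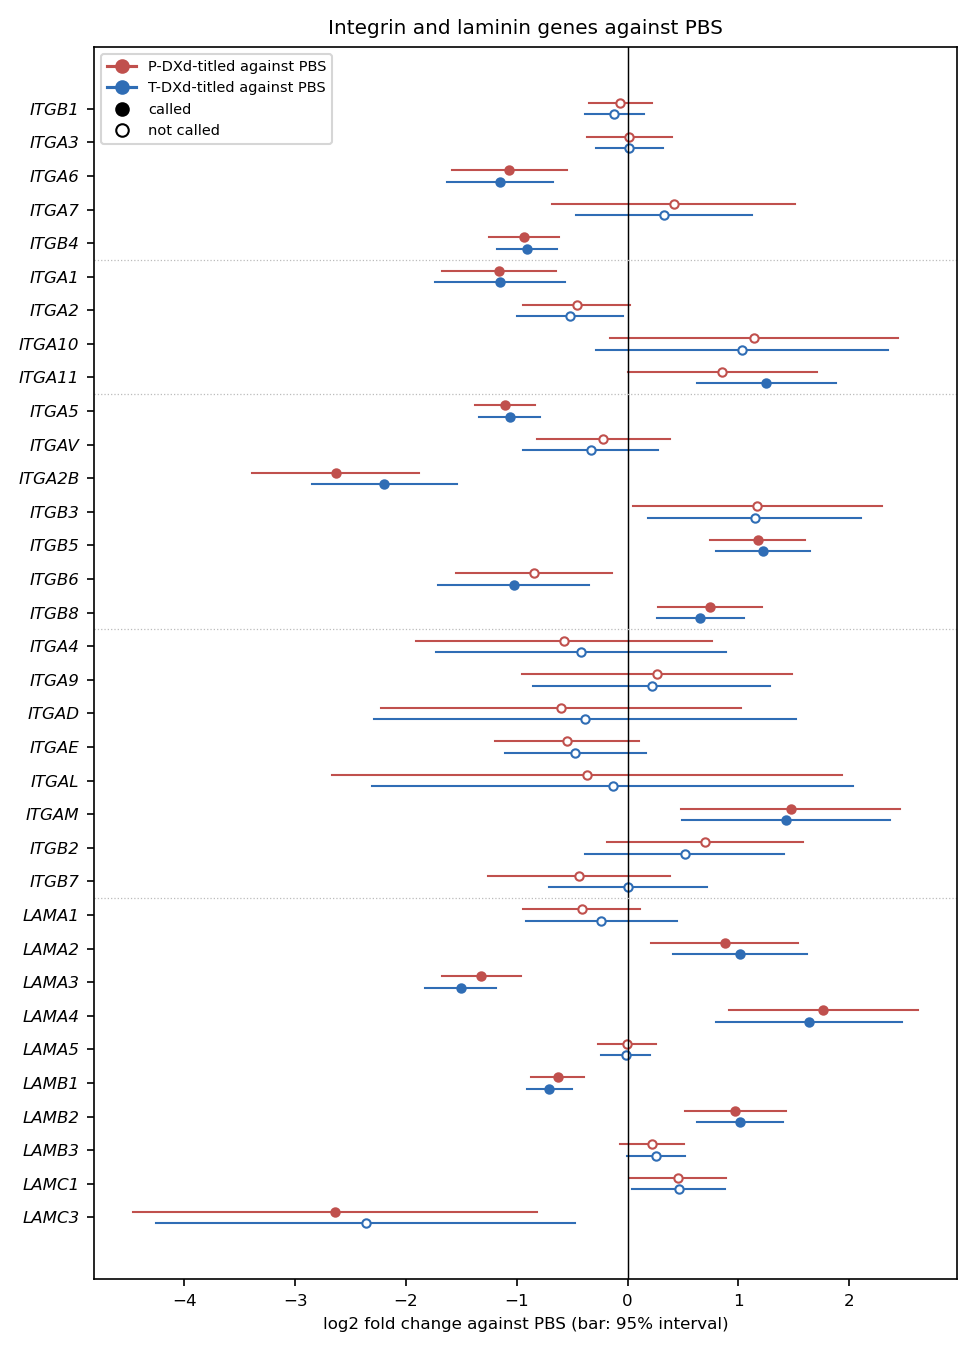
Log2 fold change against PBS (x axis) of 34 of the 35 integrin and laminin genes tested, in the P-DXd-titled (red) and T-DXd-titled (blue) libraries, with the 95% interval as a bar and a filled point for a called gene. The intervals of the conjugates overlap for each gene; the called falls include LAMA3, ITGA6, ITGB4, ITGA5 and ITGA2B, and the called rises include LAMA4, LAMB2 and ITGB5.

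By level, the members spanned several orders of magnitude. Levels of different genes are compared as CPM per kilobase of the Ensembl canonical transcript in GENCODE v44. In PBS tumors the highest were ITGB1 at 555 ± 64.6 CPM per kilobase (mean ± SD, n = 3), LAMB3 at 445 ± 53.3, ITGA3 at 359.5 ± 51.6 and ITGB4 at 350.3 ± 44.7. The PBS libraries of ITGB1 and LAMB3 overlapped on this scale, as did those of ITGA3 and ITGB4, and those of LAMB3 and ITGA3 did not. With the union of all exons as length, ITGB1 ranked 5 in PBS. The same 4 genes held the first 4 places in both treated groups, where ITGB4 had fallen to 181 ± 16.3 and 186 ± 2.25 CPM per kilobase. Further down in PBS came LAMA3 at 94.3 ± 14.9, ITGA6 at 82.2 ± 25.5, ITGA2 at 76.6 ± 21.4 and LAMA5 at 46.3 ± 3.78, of which the first 3 overlapped. Of the 36 members, LAMA3 held place 6 in PBS and place 11 in each treated group, and LAMB2 moved from place 13 to place 6. At the other end, 7 members (ITGA4, ITGA9, ITGAD, ITGAL, ITGB7, LAMB4 and LAMC3) averaged under 1 CPM in every group.

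**Figure D2:**
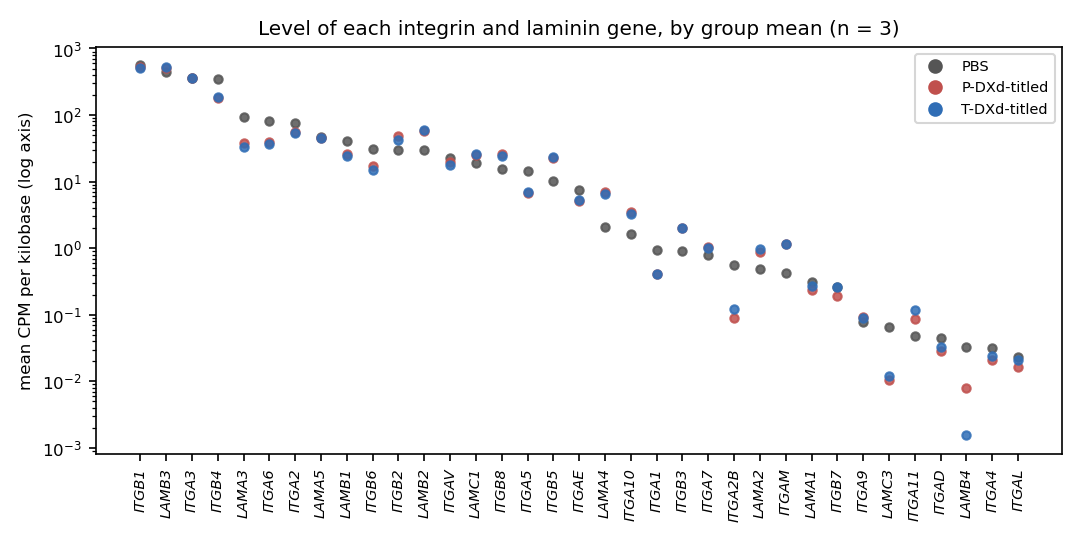
Mean CPM per kilobase of canonical transcript (y axis, log scale) of 35 of the 36 genes, ordered by the PBS level, in PBS (grey), P-DXd-titled (red) and T-DXd-titled (blue) tumors, n = 3 each. ITGB1, LAMB3, ITGA3 and ITGB4 lead in each group, and both treated groups lie together, below PBS for LAMA3 and ITGA6 and above it for LAMB2 and LAMA4.

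LAMA3 and LAMB3, which are chains of laminin-332, did not move together. LAMA3 (ENSG00000053747.11, chromosome 18), the α chain that integrins α3β1 and α6β4 bind, was 904, 923 and 1188 CPM in the PBS, 439, 346 and 410.4 CPM in the P-DXd-titled and 325, 352 and 383 CPM in the T-DXd-titled libraries. Each treated library was below each PBS library, and the call was kept in every alternative in all 3 comparisons with PBS (log2 fold change -1.42, SE 0.11, adjusted p 6.52e-06; log2 fold change -1.32 and -1.51 in the P-DXd-titled and T-DXd-titled libraries alone). LAMB3 (ENSG00000196878.8, chromosome 1), the β chain, was 2029, 1626 and 1703 CPM in the PBS, 1968, 1975 and 2243 CPM in the P-DXd-titled and 2066, 2091 and 2228 CPM in the T-DXd-titled libraries. Treated and PBS libraries overlapped, and the small rise did not reach 1.5-fold (log2 fold change 0.23, SE 0.09, adjusted p 0.0467).

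Both LAMA3 and LAMB3 have an AP-1 motif (TGANTCA, bound by Fos and Jun proteins) within 250 bases upstream of a RefSeq start, and they are shown because these partner chains share the motif while differing in response. The windows are 5′ to 3′ on GRCh38.p14, with capitals at AP-1 motifs and at GC boxes (GGGCGG, or CCGCCC on the other strand). The LAMA3 start used here lies 183.567 kb inside the gene from its 5′ end in GENCODE v44, where the shorter transcript begins, and the LAMB3 start lies 1.051 kb inside its gene. The other LAMB3 starts, at 0 and 0.096 kb from the 5′ end, have no AP-1 motif in their windows.
LAMA3 upstream window, chr18:23872770-23873019, plus strand: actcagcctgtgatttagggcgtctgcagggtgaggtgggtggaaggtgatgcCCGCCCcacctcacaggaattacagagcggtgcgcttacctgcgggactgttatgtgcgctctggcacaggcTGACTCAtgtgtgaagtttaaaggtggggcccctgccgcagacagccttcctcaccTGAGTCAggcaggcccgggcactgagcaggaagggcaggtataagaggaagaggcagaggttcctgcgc
LAMB3 upstream window, chr1:209651375-209651624, minus strand: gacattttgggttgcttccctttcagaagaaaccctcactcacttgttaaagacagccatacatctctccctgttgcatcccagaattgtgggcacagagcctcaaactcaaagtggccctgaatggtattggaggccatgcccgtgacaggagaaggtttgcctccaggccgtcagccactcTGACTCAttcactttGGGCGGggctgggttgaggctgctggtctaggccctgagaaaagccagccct
The AP-1 motifs begin 125 and 69 bases before the LAMA3 start and 67 bases before the LAMB3 start. Of 35116 RefSeq promoter windows, 2308 (6.57%) hold this motif. Among the windows of the 25 members that have any, 2 hold it, the LAMA3 and LAMB3 windows printed above. Some members have several windows, so the motif is not shown to be more frequent here than over all windows. A GC box is in 14973 windows (42.6%). No window was found for ITGB4. These matches are a description of the letters, and binding was not measured.

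**Figure D3:**
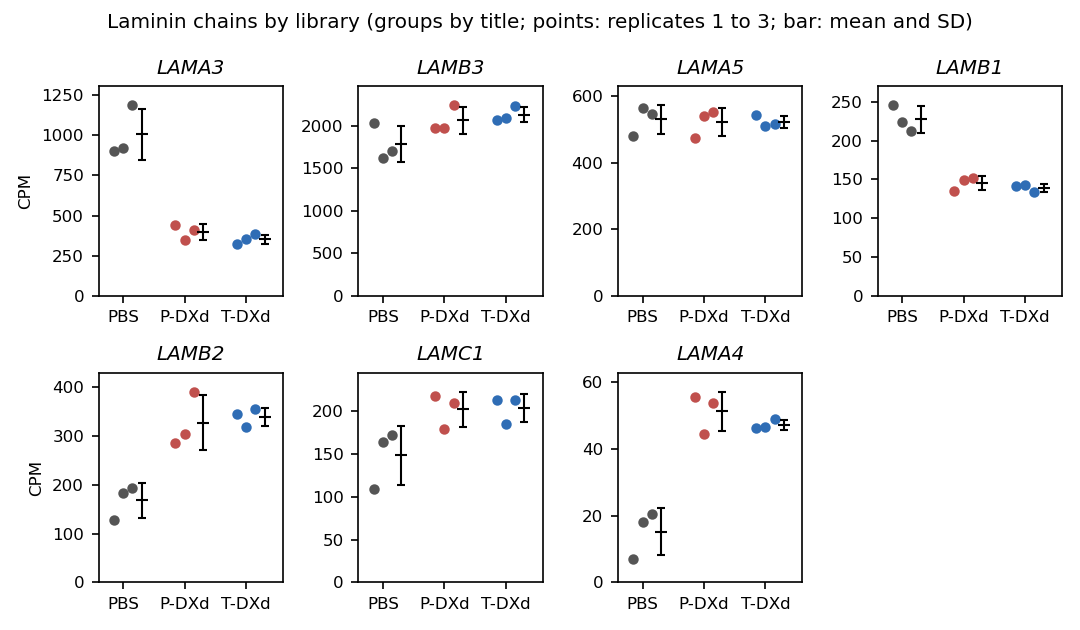
CPM (y axis, from 0) of 7 laminin chains in each of the 9 libraries, by group, with the group mean and SD as a black bar. LAMA3 and LAMB1 are lower in each treated library than in each PBS library, LAMB2, LAMC1 and LAMA4 are higher, and LAMB3 and LAMA5 overlap.

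Among the other laminin α chains, LAMA5, the α chain of the laminins found under most adult epithelia and vessels, hardly moved. LAMA5 shares part of its table interval with ADRM1, so reads of the overlap are uncertain. It was 480.4, 562 and 545 CPM in the PBS, 474, 541 and 551 CPM in the P-DXd-titled and 541, 509.5 and 514 CPM in the T-DXd-titled libraries, with overlapping groups and a 95% interval of the log2 fold change from -0.19 to 0.14 (log2 fold change -0.02, SE 0.08, adjusted p 0.827). LAMA4 (ENSG00000112769.14, chromosome 6), the α chain of vessel, muscle and fat laminins, was 7.09, 18.0 and 20.4 CPM in the PBS, 55.5, 44.5 and 53.7 CPM in the P-DXd-titled and 46.1, 46.4 and 48.9 CPM in the T-DXd-titled libraries. The lowest treated library had more than the highest PBS library, and this was the largest rise among the members (log2 fold change 1.70, SE 0.27, adjusted p 0.000438; 1.77 and 1.64 in each treated group alone). PBS replicate 1 was the lowest, and without it the log2 fold change was 1.37. LAMA2 (ENSG00000196569.7, chromosome 6), the α chain of the laminin around muscle fibres and nerves, was 6.67, 4.15 and 3.41 CPM in the PBS, 7.0, 9.56 and 9.23 CPM in the P-DXd-titled and 9.99, 9.38 and 9.32 CPM in the T-DXd-titled libraries. The groups did not overlap, though P-DXd-titled replicate 1 was close to PBS replicate 1 (log2 fold change 0.94, SE 0.21, adjusted p 0.00309; 0.87 (adjusted p 0.0493) and 1.02 (adjusted p 0.0191) in each treated group alone). In the P-DXd-titled comparison the LAMA2 call was lost in 7 of 12 alternatives. Dropping any single P-DXd-titled library removed it, and so did dropping PBS replicate 2 or 3. The loss was thus not particular to the library high in muscle genes. With that library dropped the log2 fold change was 0.80 (adjusted p 0.1325), and with PBS replicate 2 dropped it was 0.77 (adjusted p 0.1456). In the T-DXd-titled comparison the LAMA2 call was lost in 4 of 12. LAMA1, the α chain of an embryonic laminin, ranged from 1.86 to 3.65 CPM over the 9 libraries and was not called (log2 fold change -0.33, SE 0.22, adjusted p 0.221).

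The β chains LAMB1 and LAMB2, which take the same place in a trimer, moved in opposite directions. LAMB1 (ENSG00000091136.9, chromosome 7) was 246, 223 and 212 CPM in the PBS, 135, 149 and 152 CPM in the P-DXd-titled and 141, 142 and 133 CPM in the T-DXd-titled libraries. Every treated library was lower than every PBS library (log2 fold change -0.68, SE 0.07, adjusted p 2.69e-05; -0.63 and -0.71 in each treated group alone, and -0.58 and not called in the P-DXd-titled one without PBS replicate 1). LAMB2 (ENSG00000172037.9, chromosome 3) was 127, 182 and 194 CPM in the PBS, 285, 304 and 390.5 CPM in the P-DXd-titled and 344, 317 and 354 CPM in the T-DXd-titled libraries. Here each treated library was higher than each PBS library (log2 fold change 0.99, SE 0.14, adjusted p 0.000233; 0.97 and 1.01 in each treated group alone). Their upstream windows are shown because the genes moved apart, with GC boxes in capitals as above.
LAMB1 upstream window, chr7:108003162-108003411, minus strand: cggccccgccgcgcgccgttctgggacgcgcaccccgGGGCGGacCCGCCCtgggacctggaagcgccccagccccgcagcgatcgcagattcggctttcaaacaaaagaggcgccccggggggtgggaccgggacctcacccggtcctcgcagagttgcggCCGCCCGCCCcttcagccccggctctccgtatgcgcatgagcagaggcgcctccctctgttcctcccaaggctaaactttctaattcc
LAMB2 upstream window, chr3:49133051-49133300, minus strand: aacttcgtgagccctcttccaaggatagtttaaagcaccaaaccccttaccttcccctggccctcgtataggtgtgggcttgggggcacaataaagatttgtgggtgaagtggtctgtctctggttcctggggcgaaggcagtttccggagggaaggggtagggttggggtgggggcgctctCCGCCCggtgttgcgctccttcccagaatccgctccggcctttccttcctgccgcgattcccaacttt
The LAMB1 window holds 4 GC box matches, some of them overlapping, and the LAMB2 window holds 1. Neither holds an AP-1 motif. LAMB1 shares part of its table interval with DLD, so reads of the overlap are uncertain. LAMB4 had at most 0.341 CPM in any library.

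For the γ chains, LAMC1, the γ chain of most laminins, was 109, 165 and 172 CPM in the PBS, 218, 179 and 209.9 CPM in the P-DXd-titled and 214, 186 and 214 CPM in the T-DXd-titled libraries. It did not overlap between treated and PBS libraries but rose by less than 1.5-fold (log2 fold change 0.45, SE 0.13, adjusted p 0.0153), a value that dropped to 0.28 on leaving out PBS replicate 1. LAMC3 (ENSG00000050555.13, chromosome 9), a γ chain of few tissues, was near the limit of the counts, with 65, 27 and 57 counts in the PBS, 6, 8 and 1 in the P-DXd-titled and 5, 14 and 1 in the T-DXd-titled libraries. LAMC3 passed the filter on low counts through the PBS libraries, where it was high, and was too low to test between the conjugates. Its place among the lower calls is limited by this. It was called in the combined comparison (log2 fold change -2.50, SE 0.64, adjusted p 0.00698), while in each treated group alone the log2 fold changes were -2.64 (adjusted p 0.0368) and -2.36 (adjusted p 0.0501). These separate values were unstable, since the P-DXd-titled call was lost in 5 of 11 alternatives (adjusted p up to 0.113, and lost without PBS replicate 1 or 3 or any P-DXd-titled replicate) and the T-DXd-titled comparison gained a call in 5 of 11.

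On the scale of CPM per kilobase, these changes altered the mix of laminin chains. LAMA3 made up 65.6 ± 3.14%, 40.9 ± 3.94%, 38.3 ± 2.39% of the summed α chains in PBS, P-DXd-titled and T-DXd-titled tumors (mean ± SD, n = 3 each). LAMA5 made up 32.4 ± 3.04%, 50.1 ± 4.45%, 52.7 ± 2.43% in the same order. With canonical lengths LAMA5 was thus below LAMA3 in PBS and above it in treated tumors. Which of them leads depends on the length used, and the length of the shorter LAMA3 transcript was not tried. LAMA4 made up 1.43 ± 0.579%, 7.76 ± 0.671%, 7.53 ± 0.0755%. Among β chains LAMB3 held a near constant share (86.3 ± 1.88%, 86.1 ± 0.747%, 86.3 ± 0.473%). Tests of single log2 ratios between chains in the same library, which do not depend on library scaling, were run for 6 pairs, of which 5 are described, with an exact two-sided permutation test over 84 divisions of the 9 libraries. Each of these 5 gave an exact permutation p = 0.0119, the smallest this design allows, and 0.0119 after adjustment over the 6. The ratios reuse the counts of single genes and were chosen with earlier results of these data known, so they add no independent support. The log2 ratio of LAMA3 to LAMA5 counts was 0.91, 0.71 and 1.12 in the PBS, -0.11, -0.64 and -0.42 in the P-DXd-titled and -0.73, -0.53 and -0.43 in the T-DXd-titled libraries. It was lower in each treated library than in each PBS library, a difference of -1.40 between treated and PBS means. Counts in these ratios are not divided by length, so only the change between groups is read. The LAMB3 to LAMB1 ratio was higher in treated tumors by 0.91 on the log2 scale.

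**Figure D4:**
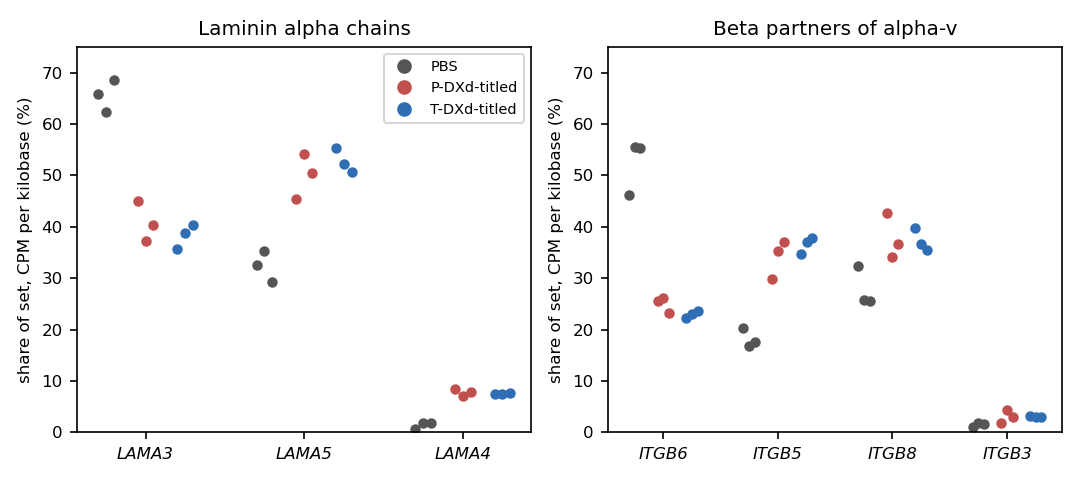
Share in percent (y axis) of each gene in the summed CPM per kilobase of the laminin α chains (left) and of 4 β subunits that pair with αv, ITGB1 left out (right), 1 point per library, in PBS (grey), P-DXd-titled (red) and T-DXd-titled (blue) tumors. LAMA3 and ITGB6 hold the largest share of their set in each PBS library, and LAMA5, ITGB5 and ITGB8 hold larger shares in treated than in PBS tumors.

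Of the laminin receptors, both genes of α6β4 fell and neither gene of α3β1 was called. ITGB4 (ENSG00000132470.9, chromosome 17), the β subunit of hemidesmosomes, was 1776, 2129 and 2292 CPM in the PBS, 999.7, 1028 and 1179 CPM in the P-DXd-titled and 1102, 1084 and 1110.1 CPM in the T-DXd-titled libraries. The groups were well apart (log2 fold change -0.93, SE 0.09, adjusted p 1.77e-05; -0.94 and -0.91 in each treated group alone). ITGA6 (ENSG00000091409.10, chromosome 2), its only α partner, was 649, 388 and 397 CPM in the PBS, 254, 191 and 231 CPM in the P-DXd-titled and 212, 215 and 215 CPM in the T-DXd-titled libraries. Here too no treated library reached the PBS range, but PBS replicate 1 had far more than the other PBS libraries (log2 fold change -1.12, SE 0.15, adjusted p 0.000153), and without it the log2 fold change was -0.83 and still called. In the P-DXd-titled comparison the ITGA6 call was lost without P-DXd-titled replicate 3 (log2 fold change -1.08, adjusted p 0.0542). ITGA3, the α subunit of α3β1, was 1468, 1924 and 1882 CPM in the PBS, 1924, 1444 and 1915 CPM in the P-DXd-titled and 1689.7, 1762 and 1875 CPM in the T-DXd-titled libraries. The groups overlapped fully, with a 95% interval from -0.25 to 0.26 (log2 fold change 0.01, SE 0.12, adjusted p 0.952). ITGB1, the β subunit shared by most matrix receptors, was 1805, 2139.6 and 2274 CPM in the PBS, 1998, 1867 and 2017 CPM in the P-DXd-titled and 1988, 1842 and 1884 CPM in the T-DXd-titled libraries, also overlapping (log2 fold change -0.10, SE 0.08, adjusted p 0.322). ITGA7, the laminin receptor subunit of muscle, was not called (log2 fold change 0.37, SE 0.33, adjusted p 0.372), and its highest library, at 7.08 CPM, was the P-DXd-titled replicate 2 that was high in muscle genes. ITGB4 and ITGA7 share part of their table intervals with other listed genes (GALK1 for ITGB4; BLOC1S1 and METTL7B for ITGA7).

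Ratios of these same counts restate the split within each library and are not further evidence of it. The log2 ratio of ITGB4 to ITGB1 counts was -0.02, -0.01 and 0.01 in the PBS, -1.0, -0.86 and -0.78 in the P-DXd-titled and -0.85, -0.76 and -0.76 in the T-DXd-titled libraries. PBS libraries had about as many counts of one as of the other, and each treated library had fewer of ITGB4 (difference -0.83). For ITGA6 to ITGA3 it was -1.18, -2.31 and -2.25 in the PBS, -2.92, -2.92 and -3.05 in the P-DXd-titled and -2.99, -3.03 and -3.12 in the T-DXd-titled libraries. Each treated library was below the PBS range, with a difference of -1.10, which was -0.73 without PBS replicate 1.

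**Figure D5:**
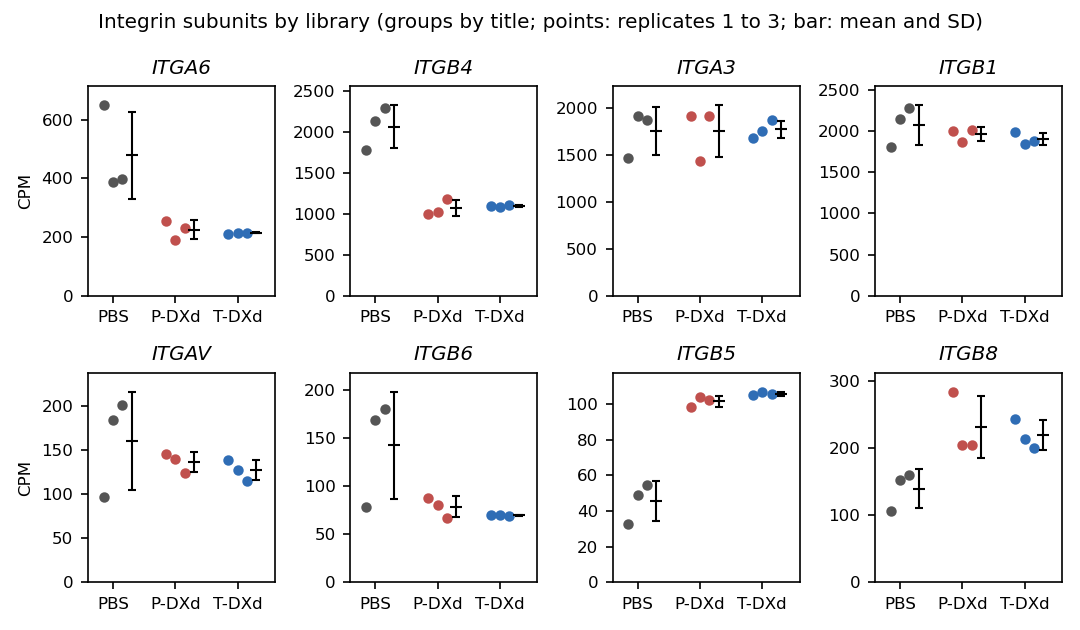
CPM (y axis, from 0) of 8 integrin subunits in each of the 9 libraries, by group, with the group mean and SD as a black bar. ITGA6 and ITGB4 are lower in each treated library than in each PBS library, ITGB5 and ITGB8 are higher, ITGA3 and ITGB1 overlap, and PBS replicate 1 (first point) lies apart from the other PBS libraries for ITGA6, ITGAV and ITGB6.

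Other parts of the α6β4 and laminin machinery were read from gene lists. Their counts stand beside the 15.2% of all genes called higher and the 17.1% called lower in the combined comparison, and no test of a list was made. Of 9 genes of hemidesmosomes and tetraspanins, 4 were lower and 3 higher. The lower ones were KRT14 and KRT5, keratins of basal epithelium, COL17A1, the transmembrane collagen of hemidesmosomes, and DST, which ties ITGB4 to keratin, with log2 fold changes of -2.43 for KRT14, -1.37 for KRT5, -1.86 for COL17A1 and -0.93 for DST. The higher ones were tetraspanins, membrane proteins that bind laminin-binding integrins (1.03 for TSPAN4, 0.82 for CD151 and 0.79 for CD9). Of 22 other basement membrane components, 7 were higher, among them SMOC2, COL18A1 and NTN4, a netrin that binds laminin γ chains (2.64 for SMOC2, 1.62 for COL18A1 and 1.61 for NTN4), and 2 were lower, NID1, which links laminin to collagen IV, and COL4A6 (-1.05 for NID1 and -1.52 for COL4A6). Of 8 laminin receptors that are not integrins, 4 were called, each of them higher, while 3 of the 8 had a log2 fold change below 0 and were not called. They were SDC2 and SDC4, both syndecans, BCAM, which binds LAMA5, and DAG1, the dystroglycan gene (1.31 for SDC2, 1.08 for BCAM, 0.75 for DAG1 and 0.60 for SDC4).

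The αv integrins, in which αv pairs with 1 of several β subunits, bind RGD motifs in fibronectin, vitronectin and latent TGF-β. ITGAV itself was 96.5, 183 and 201 CPM in the PBS, 146, 140.1 and 124 CPM in the P-DXd-titled and 138, 127 and 115 CPM in the T-DXd-titled libraries, with treated libraries inside the PBS range (log2 fold change -0.28, SE 0.18, adjusted p 0.213). Without PBS replicate 1 it was called lower in the T-DXd-titled comparison, where the log2 fold change went from -0.33 to -0.60. ITGB6 (ENSG00000115221.6, chromosome 2), the epithelial partner that activates latent TGF-β, was 78.1, 169 and 179.6 CPM in the PBS, 87.8, 80.8 and 66.9 CPM in the P-DXd-titled and 70.2, 69.5 and 69.1 CPM in the T-DXd-titled libraries. PBS replicate 1 lay within the treated range and the other PBS libraries were far above it. ITGB6 was called in the combined comparison (log2 fold change -0.94, SE 0.21, adjusted p 0.00319), with log2 fold changes of -0.84 (adjusted p 0.0648) and -1.03 (adjusted p 0.027) in each treated group alone, and the T-DXd-titled call was lost on leaving out either PBS replicate 2 or 3 or any T-DXd-titled replicate. Without PBS replicate 1 it was called in the P-DXd-titled comparison too, at a log2 fold change of -1.14.

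ITGB5 (ENSG00000082781.7, chromosome 3), a vitronectin receptor subunit, was 32.9, 48.8 and 54.5 CPM in the PBS, 98.2, 104 and 102 CPM in the P-DXd-titled and 105, 107 and 105 CPM in the T-DXd-titled libraries. All treated libraries were above all PBS libraries and close to one another (log2 fold change 1.19, SE 0.13, adjusted p 4.94e-05; 1.17 and 1.22 in each treated group alone). ITGB8 (ENSG00000105855.5, chromosome 7), another partner that binds latent TGF-β, was 106, 152 and 159.7 CPM in the PBS, 284, 204 and 205 CPM in the P-DXd-titled and 243, 214 and 200.4 CPM in the T-DXd-titled libraries. The groups did not overlap (log2 fold change 0.69, SE 0.15, adjusted p 0.00279). The call was lost on leaving out PBS replicate 1, at a log2 fold change of 0.54, and likewise in each treated group alone (0.58 and 0.49). ITGB3 (ENSG00000259207.3, chromosome 17), the β subunit of platelet and vessel integrins, was 2.21, 7.50 and 6.41 CPM in the PBS, 7.64, 17.2 and 11.2 CPM in the P-DXd-titled and 13, 11.5 and 11.2 CPM in the T-DXd-titled libraries. The lowest treated library was barely above the highest PBS library, and the gene was called in the combined comparison (log2 fold change 1.15, SE 0.35, adjusted p 0.0171) but not in each treated group alone (1.17 (adjusted p 0.0956) and 1.15 (adjusted p 0.0585)). It was called in both treated groups by DESeq2 and when all 9 libraries shared a fit, and without PBS replicate 1 it was called in the T-DXd-titled comparison at a log2 fold change of 0.78. ITGB3 overlaps EFCAB13 in the tables.

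ITGB1, which also pairs with αv and with many other α subunits, was left out of the shares of αv partners, and at 555 ± 64.6 CPM per kilobase in PBS it was far above ITGB6 at 30.6 ± 12.0. Per kilobase, ITGB6 made up 52.4 ± 5.37%, 25.0 ± 1.57%, 23.0 ± 0.737% of the other 4 β partners (ITGB3, ITGB5, ITGB6 and ITGB8) in PBS, P-DXd-titled and T-DXd-titled tumors. ITGB5 made up 18.2 ± 1.88%, 34.1 ± 3.70%, 36.5 ± 1.62% and ITGB8 27.9 ± 3.94%, 37.9 ± 4.38%, 37.4 ± 2.23% in the same order. Among these 4, ITGB6 led in PBS and ITGB8 or ITGB5 led in treated tumors, and ITGB5 and ITGB8 did not differ beyond their spread in the treated groups. The log2 ratio of ITGB6 to ITGB5 counts was 1.25, 1.79 and 1.72 in the PBS, -0.16, -0.36 and -0.61 in the P-DXd-titled and -0.58, -0.62 and -0.61 in the T-DXd-titled libraries. It was lower in each treated library than in each PBS library, and the difference of -2.08 was the largest of these 5 ratios.

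The remaining RGD receptors both fell. ITGA5 (ENSG00000161638.6, chromosome 12), the α subunit of the fibronectin receptor α5β1, was 54.9, 62.0 and 69.3 CPM in the PBS, 29.3, 27.4 and 29.0 CPM in the P-DXd-titled and 26.7, 31.0 and 31.1 CPM in the T-DXd-titled libraries. The groups were far apart for their spread (log2 fold change -1.09, SE 0.08, adjusted p 5.52e-06; -1.10 and -1.07 in each treated group alone). ITGA2B (ENSG00000005961.13, chromosome 17), the α subunit of the platelet fibrinogen receptor, was low throughout, at 2.02, 2.16 and 1.63 CPM in the PBS, 0.298, 0.385 and 0.243 CPM in the P-DXd-titled and 0.496, 0.431 and 0.335 CPM in the T-DXd-titled libraries. Each treated library had less than each PBS library, and the log2 fold change was among the largest of the members (log2 fold change -2.40, SE 0.25, adjusted p 3.18e-05; -2.64 and -2.20 in each treated group alone). Among 24 other integrin ligands tested, beside 15.2% of all genes higher and 17.1% lower, 2 were lower, FN1, the fibronectin gene, and TGFBI, a matrix protein with an RGD motif (-2.11 for FN1 and -2.88 for TGFBI), and 9 were higher, among them VCAM1 and TNN (2.35 for VCAM1 and 2.21 for TNN).

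Of the collagen receptor α subunits, which all pair with ITGB1, ITGA2 was the main one. It was 407, 704 and 691 CPM in the PBS, 449.9, 424 and 423 CPM in the P-DXd-titled and 422, 420.2 and 412 CPM in the T-DXd-titled libraries, with PBS replicate 1 below the treated libraries and the other PBS libraries far above them. It was not called (log2 fold change -0.50, SE 0.14, adjusted p 0.012). On leaving out PBS replicate 1 it was called, with a log2 fold change of -0.71, and so it was in each treated group alone (-0.68 and -0.74). ITGA1 (ENSG00000213949.4, chromosome 5) was 8.0, 12.3 and 9.56 CPM in the PBS, 4.73, 4.75 and 3.73 CPM in the P-DXd-titled and 4.84, 5.34 and 3.24 CPM in the T-DXd-titled libraries. Treated and PBS libraries did not overlap (log2 fold change -1.16, SE 0.18, adjusted p 0.00037; -1.16 and -1.15 in each treated group alone), and PELO lies within its table interval. ITGA11 (ENSG00000137809.12, chromosome 15), a fibrillar collagen receptor of fibroblasts, was 0.477, 0.515 and 0.498 CPM in the PBS, 0.56, 1.12 and 1.00 CPM in the P-DXd-titled and 0.978, 1.36 and 1.22 CPM in the T-DXd-titled libraries. It was low, with P-DXd-titled replicate 1 close to PBS (log2 fold change 1.06, SE 0.30, adjusted p 0.0109; 0.85 (adjusted p 0.107) and 1.25 (adjusted p 0.0104) in each treated group alone). ITGA10 (ENSG00000143127.8, chromosome 1), a receptor of cartilage, was 2.04, 11.3 and 11.4 CPM in the PBS, 16.5, 17.7 and 20.1 CPM in the P-DXd-titled and 16.4, 16.1 and 18.2 CPM in the T-DXd-titled libraries. PBS replicate 1 was far below the other libraries, and without it the log2 fold change fell from 1.08 to 0.63 and was still called (adjusted p 0.000224). In the P-DXd-titled comparison it was called only without that library (0.68). The combined call (log2 fold change 1.08, SE 0.41, adjusted p 0.0428) was lost in 8 of 15 alternatives, among them leaving out any 1 treated library, where the highest adjusted p was 0.0719.

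Leukocyte integrins differed widely in level, and ITGAL and ITGAD had the fewest counts. ITGAM (ENSG00000169896.12, chromosome 16), the α subunit of the macrophage and neutrophil complement receptor, was 0.875, 2.52 and 2.64 CPM in the PBS, 4.49, 6.35 and 5.81 CPM in the P-DXd-titled and 5.55, 5.44 and 5.28 CPM in the T-DXd-titled libraries. The groups did not overlap (log2 fold change 1.44, SE 0.30, adjusted p 0.00242; 1.47 (adjusted p 0.0336) and 1.43 (adjusted p 0.0265) in each treated group alone). The P-DXd-titled call of ITGAM was lost in 4 of 12 alternatives, on leaving out PBS replicate 2 or any 1 P-DXd-titled replicate (adjusted p 0.0963 without P-DXd-titled replicate 2). Its T-DXd-titled call was also lost in 4 of 12, on leaving out any 1 T-DXd-titled replicate or with a block on the first digit of the code in the title. ITGB2, its β partner, was far higher per kilobase than any leukocyte α subunit, at 36.7, 92.0 and 122 CPM in the PBS, 134, 129 and 140.3 CPM in the P-DXd-titled and 119, 111 and 127 CPM in the T-DXd-titled libraries. PBS replicates 2 and 3 were nearer to the treated libraries than PBS replicate 1 was, and the gene was not called (log2 fold change 0.60, SE 0.28, adjusted p 0.0861). This log2 fold change dropped to 0.25 on leaving out PBS replicate 1. ITGAE was not called either (log2 fold change -0.52, SE 0.20, adjusted p 0.0426), with PBS replicate 1 at 42.3 CPM and the other 8 libraries between 16.7 and 22.3. Without that library the log2 fold change was -0.11 (adjusted p 0.3595). ITGAE overlaps GSG2 in the tables. ITGAL, ITGAD, ITGB7, ITGA4 and ITGA9 had log2 fold changes of -0.25, -0.50, -0.21, -0.50 and 0.23 and were not called.

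Markers of host cell types are given beside the members that such cells are known to use, of which ITGB2 and ITGA7 were not called; 15.2% of all genes were called higher in the combined comparison. For ITGAM and ITGB2, 5 of 9 macrophage and leukocyte markers tested were higher in treated tumors, among them LYZ and CSF1R (3.29 for LYZ and 1.87 for CSF1R); their summed level was 22.9 to 48.1 CPM in PBS and 36.4 to 62.6 in treated libraries, CD68 was at 0.0627 CPM or less in every group mean, and CD163, MRC1, TYROBP, C1QA and C1QC were not listed. For ITGA11, 7 of 13 fibroblast markers were higher, among them ASPN and MMP2 (1.79 for ASPN and 1.79 for MMP2), with a summed level of 1250 to 2267 CPM in PBS and 1422 to 2500 in treated libraries and DCN at 0.172 CPM in PBS. For LAMA4 and ITGB3, 3 of 10 endothelial markers were called higher, among them EGFL7 and TEK (1.4 for EGFL7 and 1.16 for TEK), a summed level of 30.8 to 40.4 CPM in PBS and 43.7 to 61.6 in treated libraries, and PECAM1 and EMCN not listed. Of these 10, 5 had a log2 fold change above 0 and 5 below it, and 0 were called by edgeR in the P-DXd-titled comparison, where 2 had an unadjusted p under 0.05. For LAMA2 and ITGA7, 15 of 16 skeletal muscle markers were higher, with the summed levels given above, and LAMA2 in the P-DXd-titled library highest in muscle genes was within the range of the other treated libraries. The part of host cells in these members was not tested.

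Of 33 genes that activate integrins or link them to the cytoskeleton in focal adhesions, 6 were lower and 3 higher in the combined comparison, a total share near the 32.2% of all genes called. TNS1 and TNS4, tensins that bind β tails, and FERMT1, the epithelial kindlin that activates β1 integrins, were among the lower ones (-1.99 for TNS1, -1.45 for TNS4 and -1.64 for FERMT1), and APBB1IP, an adaptor that brings talin to integrins, was the most raised (1.47 for APBB1IP). TLN1, the main talin, had a log2 fold change of 0.11 (adjusted p 0.321).

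Between the conjugates, 0 of 32 members tested were called by edgeR when the P-DXd-titled and T-DXd-titled libraries were compared directly, beside 0.0273% of all genes, and 0 by DESeq2. At an unadjusted p under 0.05 there was 1, ITGB2 (log2 difference 0.17, adjusted p 1.00 by edgeR). The log2 differences ran from -0.46 to 0.17. For 25 of the 32 the 95% interval lay within 1.5-fold either way, with bounds from -0.51 to 0.53. For example, LAMA3 differed by 0.17 (95% interval -0.04 to 0.39), ITGB4 by -0.04 (-0.22 to 0.14) and ITGB5 by -0.06 (-0.19 to 0.08). For ITGA11, ITGA2B, ITGA4, ITGA7, ITGA9, ITGB7 and LAMA1 the interval reached past 1.5-fold, so a difference of that size is not excluded.

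Gene span showed little relation to the changes. The members were long genes, with a median span of 79.5 kb in the tables beside 32.1 kb over all genes tested in the combined comparison. Across the 35 members Spearman's rho between span and log2 fold change was 0.03, and across all genes it was -0.04; genes in the same libraries are not independent, and these are given as descriptions only.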

How the data were processed

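Per the labels and the study's methods, the authors used Cutadapt to trim the reads of the PC3 xenograft libraries, STAR to align them and featureCounts to count them by gene. The deposited values are these raw counts, in 2 tables that share the PBS libraries, with identical PBS counts for the 16008 shared genes. Removal of mouse reads and use of strand are not given in the sources used here. GRCh38.p13 is named, but 0 of the 36 members have the same coordinates in GENCODE v44, so chromosomes are given as the tables list them.

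Counts were tested in R 4.3.3 with edgeR 4.0.16 (TMM, filterByExpr, two-sided quasi-likelihood F test, Benjamini-Hochberg over all genes), each pair of groups on its 6 libraries and both conjugates against PBS on all 9. DESeq2 1.42.0, RLE size factors, other filters, no fold change minimum, a 3-group fit, a block on the first digit of the code in the title and leaving out each library were alternatives. Log2 ratios used counts plus 0.5 and an exact permutation test. Replicates differed by a chi-square of 17.2 to 388 per gene, so no library was a duplicate. The codes in the titles are not explained, so p-values measure the spread between these libraries. No column of per-sample values was left unused. Transcript lengths, and the use of the canonical transcript in place of all exons, were chosen after the values were seen. Members were named, except 1 that is not reported here, those called in a comparison with PBS with each library's value, and of other lists up to 4 called genes with the largest change, except TLN1, NID1, DST, CD151 and CD9, named after their values were seen. Members, lists, ratios and tests were chosen with earlier results of these data known. The script was tested on simulated data.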

Additional observations from a re-analysis of the deposited data

Results flagged for a closer look

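In the 6 treated libraries, the gap of the most extreme library to its nearest neighbour, as a share of the range, was above Dixon's 95% limit for 4 of 35 members, where chance gives about 1 in 20. LAMA2 had a gap of 0.747, with P-DXd-titled replicate 1 at 7.0 CPM and the others at 9.23 to 9.99. ITGA2 had a gap of 0.677, with the same library at 449.9 CPM and the others at 412 to 424. ITGAE had a gap of 0.647, with that library at 16.7 CPM and the others at 19.7 to 21.3. ITGA7 had a gap of 0.637, with P-DXd-titled replicate 2, the library high in skeletal muscle genes, at 7.08 CPM and the others at 2.75 to 4.32. P-DXd-titled replicate 1 was the lowest of the treated libraries for LAMA2 and ITGAE and the highest for ITGA2.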

How the results depend on the processing

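The number of members called was 14, 15, 18 and 0 in the P-DXd-titled, T-DXd-titled, combined and direct comparisons. It was 16, 18, 20 and 0 with DESeq2, 14, 15, 18 and 0 with RLE size factors, 14, 16, 19 and 0 with no filter on low counts, 12, 15, 17 and 0 with at least 10 counts in every library, 14, 15, 23 and 0 with no fold change minimum, and 16, 17, 17 and 0 with all 3 groups in 1 fit. On leaving out 1 library at a time it ran from 8 to 14, 11 to 18, 17 to 21 and stayed at 0, and the 8 was without P-DXd-titled replicate 3. With a replicate block on the first digit of the code in the title it was 13, 14, 17 and 0. Libraries that share this digit did not deviate together (median correlation 0.02 over 13 pairs, -0.04 over the 14 others), so the digit is not taken to pair them.

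The 5 log2 ratios kept their sign in every alternative. On leaving out 1 library they ran from 0.86 to 0.95 for LAMB3/LAMB1, -1.50 to -1.29 for LAMA3/LAMA5, -0.84 to -0.80 for ITGB4/ITGB1, -1.29 to -0.73 for ITGA6/ITGA3 and -2.25 to -1.97 for ITGB6/ITGB5. With the P-DXd-titled and the T-DXd-titled libraries each alone against PBS they were 0.86 and 0.97, -1.31 and -1.48, -0.87 and -0.79, -1.05 and -1.14, and -1.96 and -2.19 in the same order, at p = 0.1 by the exact permutation test, the smallest that 3 against 3 allows.

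Of 862 refits of single members, 785 kept their call and direction, 50 lost the call, 27 gained one and 0 changed sign while called. Beside calls given above, LAMA4 lost its P-DXd-titled call without P-DXd-titled replicate 3. ITGA11 lost its T-DXd-titled call without T-DXd-titled replicate 2 (adjusted p 0.0535), and ITGB8 lost calls in single treated groups on leaving out any 1 of several libraries. ITGB2 was called by DESeq2 and without PBS replicate 3, and ITGAE without PBS replicate 2 or 3. Over all genes, 3742 P-DXd-titled calls became 2464 and 1857 without P-DXd-titled replicates 2 and 3, 4263 T-DXd-titled calls became 2820 without T-DXd-titled replicate 3, 4855 combined calls became 8398 with no fold change minimum, and the 4 direct calls ranged from 0 to 24. With the union of all exons as length, an alternative chosen after the values were seen, ITGB1 ranked 5 and ITGB4 ranked 2 in PBS, and LAMA3 made up 64.2%, 40.0% and 37.3% of α chains. Members under 1 CPM are limited by depth.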
